A study of Mus musculus with 6 samples.

Results

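The genes described here are *Axin2*, *Lef1*, *Tcf7*, *Lgr5*, *Notum*, *Nkd1*, *Nkd2*, *Rnf43*, *Znrf3* and *Dact1*, which serve as feedback regulators or as transcriptional readouts of Wnt/β-catenin signaling. They were picked by gene symbol from the deposited table, and all 10 were on the array, out of 20405 genes tested. RNA came from early passage M0505 cells, an FVB/N mouse ovarian surface epithelial (OSE) line, and from STOSE cells, the line that M0505 became when it transformed spontaneously during long-term passage in culture. Both lines were grown in the same medium with serum, EGF and an insulin supplement, neither was treated or engineered, and 3 arrays per line (Affymetrix GeneChip Mouse Gene 1.0 ST) are labelled as biological replicates. Each group is a single cell line, so the comparison is between these lines, and what the replicates differed in is not stated.

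In Wnt/β-catenin signaling a Wnt ligand binds Frizzled and LRP receptors, the destruction complex built on Axin and APC stops marking β-catenin for breakdown, and β-catenin enters the nucleus and activates genes with factors of the LEF/TCF family. Many of the genes switched on in this way limit the pathway in turn. *Axin2* rebuilds the destruction complex, *Nkd1*, *Nkd2* and *Dact1* act on Dishevelled in the cytoplasm, *Rnf43* and *Znrf3* remove Frizzled from the cell surface, and *Notum* strips Wnt ligands of the lipid they need. Because their RNA follows pathway activity in many tissues, such genes are commonly read as a gauge of it, although none is controlled by Wnt alone. *Lgr5*, a receptor for R-spondins, is also known as a marker of stem cells in the intestine and of a population of the mouse ovarian surface epithelium.

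Of the 10 genes, *Axin2*, *Lgr5*, *Dact1*, *Notum* and *Lef1* fell in STOSE cells, by 3.45-fold to 12.8-fold. The call needed both a fold change of at least 2 and an adjusted p under 0.05 from limma, with Benjamini-Hochberg adjustment over all 20405 genes. That makes 5 of 10 called lower, where 7.59% of all genes were called lower and 12.5% were called in either direction. None was called higher by limma, against 4.9% of all genes. At an unadjusted p under 0.05 and any fold, 7 of the 10 were lower and 1 (*Znrf3*) was higher by limma, beside 26.1% and 35.1% of all genes, and the methods' t-test also had 1 higher. *Tcf7* and *Nkd1* were lower and *Znrf3* was higher at the adjusted p alone, all by less than 2-fold, while *Nkd2* and *Rnf43* did not pass the test. By the adjusted p alone 7 of the 10 were lower and 1 was higher, beside 24.8% and 31.6% of all genes. The median log2 fold change (STOSE minus M0505) of the 10 genes was −1.22 and that of all genes was 0.08. In 7 genes every STOSE array lay below every M0505 array and in 2 every STOSE array lay above, a separation that 27% and 37.6% of all genes showed in these directions, 64.6% in either.

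**Figure D1:**
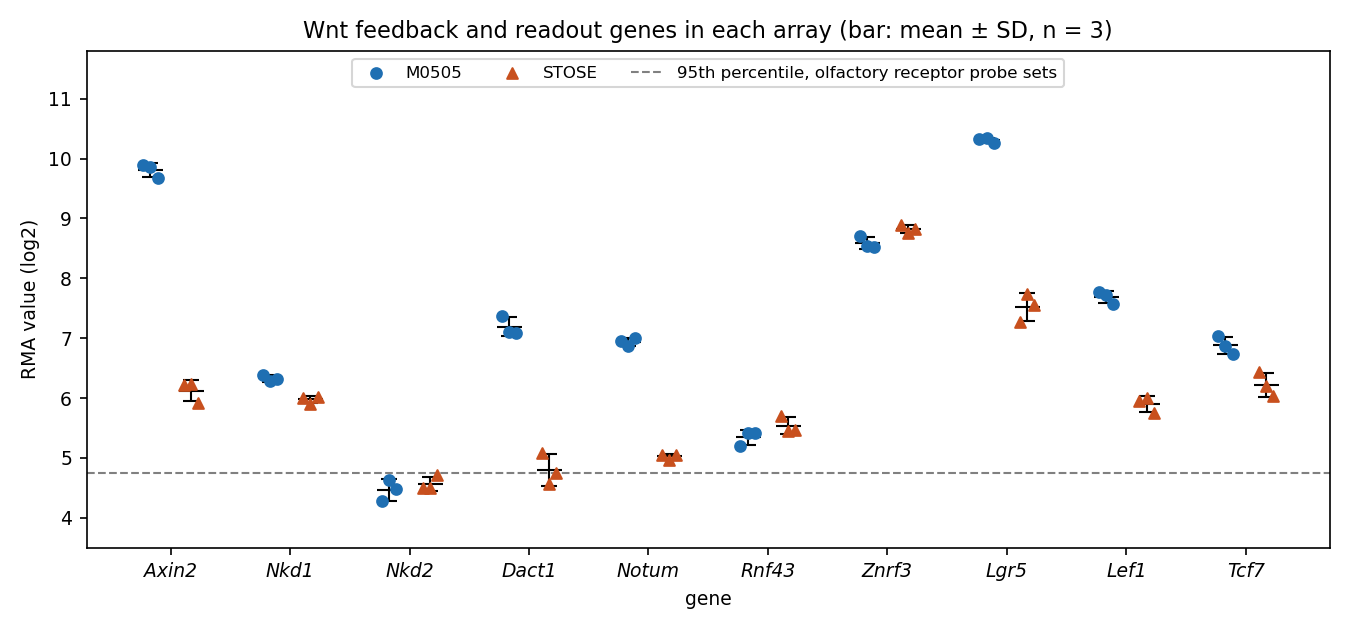
RMA values (log2, y axis) of the 10 genes (x axis) in the 3 M0505 arrays (circles) and the 3 STOSE arrays (triangles), with the mean and SD of each line as black bars. The dashed line is the 95th percentile of olfactory receptor probe sets, 4.74. The lines are far apart for *Axin2* (means 9.81 and 6.13) and *Lgr5* (10.30 and 7.52) and overlap for *Nkd2*, which lies under the dashed line in every array.

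The values are robust multi-array average (RMA) values on a log2 scale. The median of an array over all genes was 6.46 to 6.49 in M0505 cells and 6.25 to 6.29 in STOSE cells. Olfactory receptors, most of which were assumed to be silent in these cells, served as a gauge of background. The 95th percentile of their probe sets was 4.74. Only *Nkd2*, of the 10 genes, lay under it in all 6 arrays. Exact permutation over 3 against 3 arrays cannot give a two-sided p below 0.1, so the tests of single genes below are those of limma, whose estimate of spread draws on all genes. For the OSE identity in the labels, 13 markers of ovarian surface epithelium and mesothelium were read. Of these, 12 had means over that percentile in both lines and *Lhx9* had neither. As 69.8% of the values of all genes lay over it, a mean over it does not by itself settle a cell type. In STOSE cells 5 of the 13 were called lower (*Krt19*, *Krt8*, *Gata4*, *Bnc1* and *Krt7*), and the summed linear level of the list was 31149 to 32878 in M0505 arrays and 17732 to 18921 in STOSE arrays. Beside this count and those of the lists that follow, 7.59% of all genes were called lower and 4.9% higher. Of 8 granulosa cell markers, *Inha* and *Nr5a1* were called lower, 4 lay under the percentile in both lines, and the sum was 1170 to 1301 and 286 to 303. *Cd68* alone of 7 leukocyte markers was called (lower, sum 881 to 1141 and 332 to 359). Of these 7, 3 had means over the percentile in each line and 4 lay under it in both, among them *Ptprc* (3.79 and 3.81). *Kdr* alone of 6 endothelial markers was called (lower, sum 876 to 956 and 157 to 171). Of these 6, 4 had means over the percentile in M0505 cells and 3 in STOSE cells. The 2 under it in both lines included *Emcn* (2.99 and 3.05). *Ovgp1* was called higher among 4 oviduct markers (129 to 135 and 220 to 256), of which 3 had means over the percentile in M0505 cells and 4 in STOSE cells. *Acta2* was called higher among 7 fibroblast and smooth muscle markers (5234 to 5390 and 6703 to 7815), of which 5 had means over it in each line. The 4 theca and Leydig type markers on the array lay under the percentile in both lines (42.1 to 44.0 and 47.4 to 50.6). The part of these markers in the changes of the Wnt genes was not tested, and fewer cells of a type and less RNA per cell cannot be told apart in bulk RNA.

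Promoter windows are shown for 3 of the genes that fell together, *Axin2*, *Dact1* and *Lef1*, since LEF/TCF factors are known to act through sites near the starts of Wnt target genes as well as farther away. The windows run from 250 bases before to 50 bases after a transcription start in RefSeq (GRCm38.p6), 5′ to 3′ on the strand of the gene, which is the plus strand for all 3. They are chr11:108920099-108920398 for *Axin2*, chr12:71309634-71309933 for *Dact1* and chr3:131156044-131156343 for *Lef1*, the last being 1 of 4 windows listed for that gene and the farthest downstream of them. Capitals mark a match to the core of the LEF/TCF motif, searched on both strands as CTTTG followed by AT, TT, AA or TA.
Axin2: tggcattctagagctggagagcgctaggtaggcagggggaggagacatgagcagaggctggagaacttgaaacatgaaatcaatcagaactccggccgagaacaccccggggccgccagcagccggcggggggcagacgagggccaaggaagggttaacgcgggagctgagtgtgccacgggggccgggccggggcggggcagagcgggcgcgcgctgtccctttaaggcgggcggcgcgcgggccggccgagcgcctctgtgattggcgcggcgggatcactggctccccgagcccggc
Dact1: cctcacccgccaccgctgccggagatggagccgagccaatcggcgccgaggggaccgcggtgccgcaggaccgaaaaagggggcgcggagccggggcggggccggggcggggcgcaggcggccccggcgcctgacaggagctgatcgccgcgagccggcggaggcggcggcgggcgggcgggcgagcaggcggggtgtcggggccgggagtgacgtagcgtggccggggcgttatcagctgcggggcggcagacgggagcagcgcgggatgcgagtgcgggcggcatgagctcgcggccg
Lef1: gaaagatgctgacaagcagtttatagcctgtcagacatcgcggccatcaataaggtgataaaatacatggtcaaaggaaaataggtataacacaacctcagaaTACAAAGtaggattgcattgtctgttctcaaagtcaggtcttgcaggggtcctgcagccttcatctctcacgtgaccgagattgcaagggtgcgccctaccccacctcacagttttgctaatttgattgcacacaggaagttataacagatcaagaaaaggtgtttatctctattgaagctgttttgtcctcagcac
The *Lef1* window shown holds the only match, TACAAAG on the plus strand, which begins at position −147 relative to the start site. The other *Lef1* windows, the first of which begins at chr3:131110047, held no match. Among the 12 windows of the 7 genes with an entry, this was the single window with a match, and 16.9% of the 32851 promoter windows of the same length in the table hold 1 or more. The window of *Axin2* was 70.0% G or C and that of *Dact1* 79.7%, while the *Lef1* window shown was 43.7% and the other windows of *Lef1* 67.3%, 67.3% and 51.7%, beside a median of 52.7% for all windows. No window was listed for *Lgr5*, *Notum* and *Znrf3*.

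*Axin2*, the scaffold that restores the destruction complex and the best known readout of β-catenin activity, changed most of the 10 in measured values. Its log2 values were 9.89, 9.85 and 9.67 in the M0505 arrays and 6.22, 6.24 and 5.92 in the STOSE arrays. The lines did not overlap, and the gap between them was far wider than the spread within either. The means were 9.81 ± 0.12 (SD, n = 3) and 6.13 ± 0.18 (SD, n = 3), a fall of 12.8-fold (log2 fold change −3.68 with a standard error, SE, of 0.10, limma adjusted p = 3.46e-08). It ranked 122 by fold change among the 1548 genes called lower. All STOSE values remained over the olfactory receptor percentile, so that *Axin2* RNA was reduced but still measured in STOSE cells. Without any 1 array, the fall was between 11.9-fold and 13.4-fold.

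*Dact1*, *Nkd1* and *Nkd2*, the cytoplasmic inhibitors, differed in whether they were called. *Dact1*, which binds Dishevelled, had log2 values of 7.38, 7.11 and 7.09 in M0505 cells and 5.09, 4.56 and 4.74 in STOSE cells. It fell 5.26-fold (log2 fold change −2.40 ± 0.14 SE, limma adjusted p = 1.89e-06), to a level where 2 of 3 STOSE arrays were over the olfactory receptor percentile, 1 of them barely. Its STOSE level was thus near that percentile, and its fall may be understated. The values of *Nkd1* were 6.39, 6.28 and 6.31 in M0505 cells and 6.005, 5.90 and 6.03 in STOSE cells. All STOSE arrays were below all M0505 arrays, by a mean of only 1.28-fold (log2 fold change −0.35 ± 0.06 SE, adjusted p = 0.00149), under the 2-fold threshold. For *Nkd2* the values were 4.28, 4.63 and 4.49 against 4.50, 4.49 and 4.71. These overlapped, lay under the background percentile throughout and did not pass the test (log2 fold change 0.10, 95% interval −0.13 to 0.34, adjusted p = 0.415), so a change of *Nkd2* was not detectable at this signal.

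*Notum* encodes a secreted enzyme that inactivates Wnt ligands outside the cell. It was read by 2 probe sets, and the one with the higher mean over the 6 arrays was used. That probe set was the brighter in M0505 cells (6.94 against 5.37) but the dimmer in STOSE cells (5.03 against 5.32), so the choice by the overall mean favoured the probe set that fell. The probe set used gave log2 values of 6.95, 6.87 and 7.01 in M0505 cells and 5.06, 4.97 and 5.05 in STOSE cells, with no overlap. The fall was 3.78-fold (log2 fold change −1.92 ± 0.06 SE, limma adjusted p = 8.19e-08). The other probe set read 5.34, 5.34 and 5.43 in M0505 cells and 5.36, 5.21 and 5.41 in STOSE cells, and did not pass the test (log2 fold change −0.05 ± 0.07 SE, adjusted p = 0.571 over all probe sets). The mean of the 2 probe sets had a log2 fold change of −0.98, just under 2-fold, so the call of *Notum* rests on the probe set used.

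*Rnf43* and *Znrf3*, the membrane ubiquitin ligases that clear Frizzled from the cell surface, were not called. *Znrf3* was read at 8.71, 8.54 and 8.53 in M0505 cells and 8.89, 8.76 and 8.82 in STOSE cells. Its STOSE arrays were all above its M0505 arrays, with a log2 fold change of 0.23 ± 0.07 SE (1.17-fold, limma adjusted p = 0.0252). It did not pass without M0505 replicate 2 or 3 or STOSE replicate 1 or 3 (limma adjusted p = 0.0578 to 0.0862). Nor did it pass with the chromosome median subtracted (limma adjusted p = 0.212). *Rnf43* had values of 5.20, 5.42 and 5.41 in M0505 cells and 5.70, 5.45 and 5.48 in STOSE cells. The lines just failed to overlap, and the difference of 0.20 (95% interval −0.02 to 0.41, adjusted p = 0.106) did not pass the test. The 2 ligases differed from each other in log2 fold change by −0.03 (SE 0.14, exact permutation p = 0.8, two-sided), with arrays that overlapped.

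*Lgr5*, the R-spondin receptor, fell more in measured values than any of the 10 but *Axin2*. As *Dact1* was near the background percentile in STOSE cells, its order beside *Lgr5* is not settled. Its log2 values were 10.32, 10.34 and 10.26 in M0505 cells and 7.28, 7.74 and 7.55 in STOSE cells. The STOSE arrays were more spread (SD 0.23, n = 3) than the M0505 arrays (SD 0.04, n = 3), yet far below them. *Lgr5* fell 6.87-fold (log2 fold change −2.78 ± 0.11 SE, limma adjusted p = 2.67e-07), or between 6.31-fold and 7.42-fold without any 1 array. With a STOSE mean of 7.52, its RNA was still well over the background percentile.

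*Lef1* and *Tcf7* encode nuclear partners of β-catenin whose own genes respond to it. *Lef1* was measured at 7.77, 7.73 and 7.57 in M0505 cells and 5.96, 5.999 and 5.75 in STOSE cells, without overlap. It fell 3.45-fold (log2 fold change −1.79 ± 0.09 SE, limma adjusted p = 7.53e-07). *Tcf7* had values of 7.03, 6.87 and 6.74 in M0505 cells and 6.43, 6.20 and 6.04 in STOSE cells. The arrays of *Tcf7* did not overlap either, but the difference was 1.58-fold (log2 fold change −0.66 ± 0.11 SE, adjusted p = 0.00119), under the threshold. For *Tcf7*, *Nkd1*, *Rnf43* and *Znrf3*, which were not called, the 95% interval of limma excluded a 2-fold change in either direction. No such limit can be set for *Nkd2*, whose signal was not over background.

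**Figure D2:**
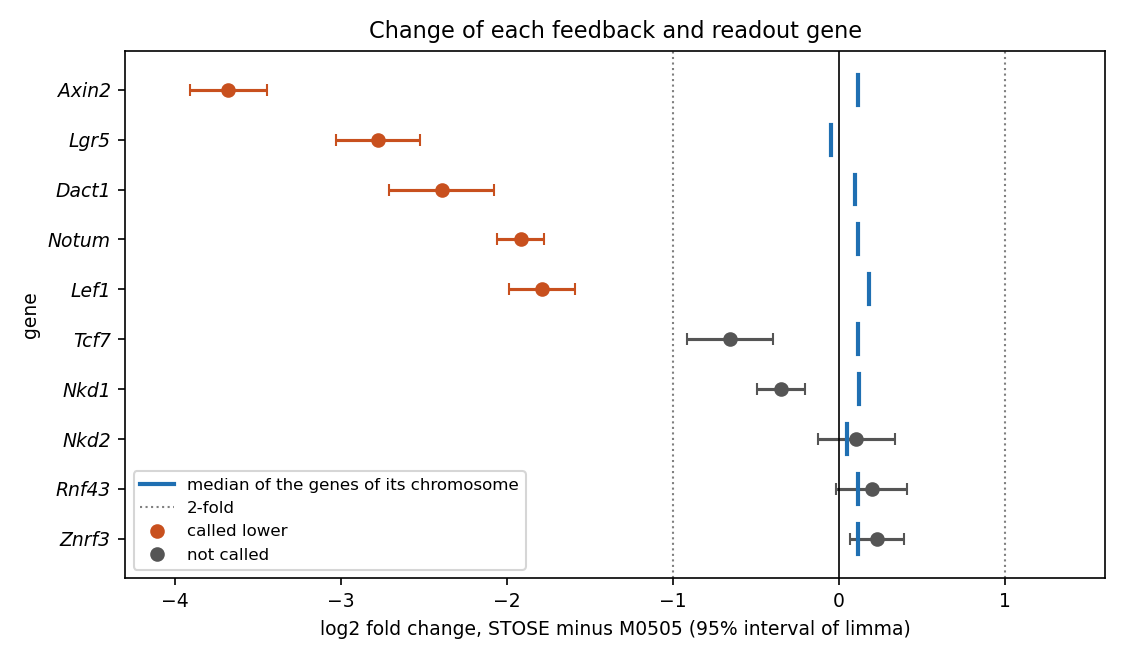
Log2 fold change (STOSE minus M0505, x axis) of each gene (y axis) with the 95% interval of limma. The blue tick is the median of the genes on the same chromosome and the dotted lines mark 2-fold. The 5 genes called lower lie between −3.68 and −1.79, the other 5 between −0.66 and 0.23, and the chromosome medians between −0.05 and 0.18.

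The genes were also set against the genes of their chromosomes. *Axin2*, *Tcf7*, *Notum*, *Rnf43* and *Znrf3* all lie on chromosome 11 and the other 5 genes on 5 different chromosomes. The median log2 fold change of the 1535 genes on chromosome 11 was 0.11, while those 5 genes ranged from −3.68 to 0.23. *Lef1* lies on chromosome 3 (median 0.18), *Nkd1* on chromosome 8 (0.12), *Dact1* on chromosome 12 (0.10), *Nkd2* on chromosome 13 (0.05) and *Lgr5* on chromosome 10 (−0.05). With the chromosome median subtracted, the same 5 genes were called lower and no gene changed direction. The share of genes called lower was 7.10% on chromosome 11, 4.36% on 3, 7.90% on 8, 13.0% on 10, 7.07% on 12 and 9.30% on 13. In the paper's karyotypes, M0505 cells had lost copies of chromosomes 3, 8 and 12 and the ends of 1 and 4. STOSE cells had lost copies of 3, 5 and 8 and gained material at the end of 4. A median over a chromosome does not correct for a change of its end, and the part of copy number was not tested.

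Several of the 10 genes have close relatives in the same step of the pathway, and each was compared with them within arrays. *Axin1*, the constitutive scaffold, differed by 0.25 on the log2 scale (SE 0.08, limma adjusted p = 0.0225), and *Axin2* minus *Axin1* was −3.93 (SE 0.11). In the LEF/TCF family, *Tcf7l1*, often a repressor, fell by 1.44 on the log2 scale (SE 0.08, adjusted p = 2.04e-06), and *Tcf7l2*, the main TCF of many epithelia, was level (0.05, 95% interval −0.17 to 0.27). The log2 fold change of *Lef1* was −1.84 relative to *Tcf7l2* (SE 0.11), −1.13 relative to *Tcf7* (SE 0.09) and −0.35 relative to *Tcf7l1* (SE 0.06). *Lgr4* and *Lgr6*, the other R-spondin receptors of this kind, had log2 fold changes of −0.16 (adjusted p = 0.0834) and −0.53 (adjusted p = 0.00341), and *Lgr5* was at −2.63 and −2.25 relative to them. *Dact2* was lower by less than 2-fold (−0.85, adjusted p = 1.51e-05) and *Dact3* did not pass the test (0.15, adjusted p = 0.17), with *Dact1* at −1.54 and −2.54 relative to them. *Nkd1* was at −0.46 relative to *Nkd2* (SE 0.14), but as the probe set of *Nkd2* was not over background this difference does not measure *Nkd2* RNA. Of 10 such pairs, the within-array differences of the lines did not overlap in all but that of *Rnf43* and *Znrf3*, each with the smallest exact permutation p that 3 against 3 arrays allow (0.1, two-sided, 0.111 adjusted over the 10 pairs), which cannot pass 0.05.

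**Figure D3:**
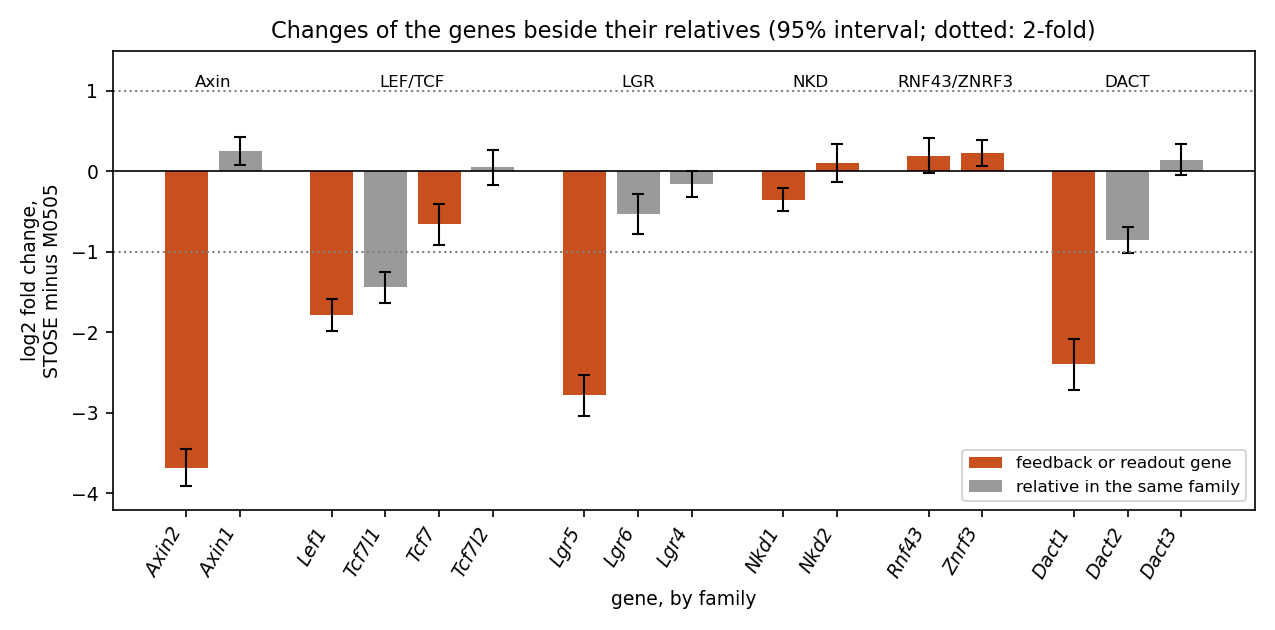
Log2 fold change (STOSE minus M0505, y axis) of the feedback and readout genes (orange) and of their relatives (grey), grouped by family along the x axis, with 95% intervals of limma and dotted lines at 2-fold. *Axin2* stands at −3.68 beside *Axin1* at 0.25, and *Lgr5* at −2.78 beside *Lgr6* at −0.53 and *Lgr4* at −0.16.

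The rest of the pathway was described with 3 lists of genes. Of all genes, 7.59% were called lower and 4.9% higher. Of 37 genes of the intracellular machinery, 2 (5.41%) were called lower and 2 (5.41%) higher, near those shares, and the median log2 fold change was −0.11. The former were *Tcf7l1* and *Pygo1*, a nuclear cofactor of β-catenin (−2.09 ± 0.09 SE, limma adjusted p = 3.93e-07). The latter were *Dvl1*, which relays the receptor signal (1.07 ± 0.09 SE), and *Tle1*, a corepressor that binds LEF/TCF factors (1.17 ± 0.07 SE). Both lie on chromosome 4 and were under 2-fold once the median of that chromosome was subtracted (0.89 and 0.995), and *Dvl1* was also under it without STOSE replicate 1 (0.99). β-catenin itself (*Ctnnb1*) had log2 values of 11.17 ± 0.02 and 11.13 ± 0.03 (SD, n = 3 each) and did not pass the test (log2 fold change −0.05, 95% interval −0.17 to 0.08). *Apc*, the other destruction complex scaffold, was at 0.01 (95% interval −0.12 to 0.14), and *Gsk3b*, the kinase that marks β-catenin, was lower by less than 2-fold (−0.49 ± 0.06 SE, adjusted p = 0.000135).

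Upstream, 14 of 56 ligands, receptors and secreted antagonists (25%) were called lower and 3 (5.36%) higher, with a median of −0.05. Over all genes these shares were 7.59% and 4.9%. *Wnt2* (log2 fold change −4.70), *Fzd3* (−3.86), *Wnt2b* (−3.33), *Sfrp1* (−3.26) and *Frzb* (−3.16) fell most, which are 2 ligands, a receptor and 2 secreted antagonists. In STOSE cells *Fzd3* and *Frzb* were under the background percentile in every array and *Wnt2* in 2 of 3, so their changes are lower bounds and the order of the 5 is not settled. The genes called higher were *Rspo3* (1.52), *Ror1* (1.33) and *Wnt11* (1.06, but 0.95 without STOSE replicate 2 and 0.98 without STOSE replicate 3). Of the R-spondins, the ligands of *Lgr5*, *Rspo1* had log2 values of 10.41 ± 0.21 in M0505 cells and 9.25 ± 0.32 in STOSE cells (SD, n = 3 each) and was called lower (−1.16 ± 0.16 SE, limma adjusted p = 0.000366), but was under 2-fold without STOSE replicate 1 (−0.98) and with each array centred on its median (−0.96). *Rspo3* rose from 4.45 ± 0.11, under the background percentile, to 5.97 ± 0.14, and *Rspo4* (0.25) did not pass the test. *Rspo2* was under the background percentile in every array.

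Among 42 other genes reported as Wnt/β-catenin targets, 11 were called higher and 3 lower, with a median of 0.22, so that their calls ran mostly opposite to those of the feedback and readout genes. Beside them, 4.9% of all genes were called higher and 7.59% lower. The largest rises were those of *Fosl1*, an AP-1 factor (log2 fold change 3.78 ± 0.22 SE), *Ccnd1*, the G1 cyclin (2.63 ± 0.19 SE), *Fst*, which binds activin (2.16), *Cyr61*, a matricellular protein (1.97), and *Mycn*, a MYC family factor (1.80). The genes called lower were *Bmp4* (−5.31), *Fgf9* (−4.52) and *Msx1* (−1.29), and that of *Bmp4* is a lower bound, since its STOSE arrays were all under the background percentile. Many of these genes answer to other pathways as well. The lists were written with earlier results of these data known, and the difference between them was not tested.

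**Figure D4:**
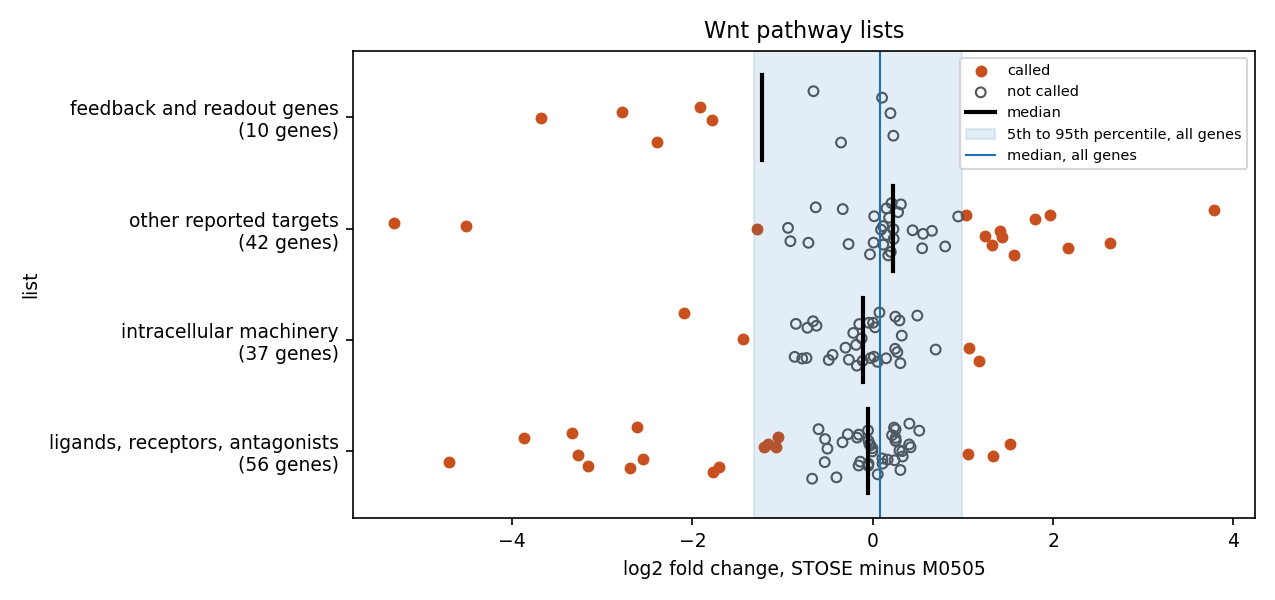
Log2 fold change (STOSE minus M0505, x axis) of every gene of 4 Wnt lists (y axis, points spread vertically for clarity), with genes called changed filled, the median of each list as a black bar, and the range of the 5th to 95th percentile of all genes shaded. The feedback and readout genes have a median of −1.22, and the other lists have medians of 0.22, −0.11 and −0.05.

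By their pattern over the 6 arrays, each gene centred on its own mean, the genes nearest to *Axin2* were *Chst11*, *Rdh10*, *Vcan*, *Cadm4* and *Cpt1c*, at root mean square distances of 0.08, 0.09, 0.09, 0.12 and 0.12 on the log2 scale. All were called lower, with log2 fold changes of −3.71, −3.69, −3.71, −3.46 and −3.77, that of *Vcan* with STOSE values under the background percentile. As the 6 arrays are only 2 lines, this likeness rests mostly on the size of the difference between them.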

How the data were processed

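Total RNA of M0505 and STOSE cells was hybridized to 3 arrays each. The authors deposited 1 table of log2 RMA values made with Affymetrix Expression Console, in which probe signals are background corrected, quantile normalized and summarized per probe set. The software version, annotation release and genome build are not given in the sources used here. The table also holds the mean of each line and the fold change between them, which were not used. All 6 columns of array values were matched to a sample by name.

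Of 28944 probe sets, 23530 carried a gene symbol, and each of 20405 genes was represented by its brightest probe set, judged by the mean of the 6 arrays. The lines were compared by limma 3.58.1 (R 4.3.3, functions lmFit and eBayes), without covariates and with Benjamini-Hochberg adjustment over all genes. The code was tested on simulated data. Arrays have no read depth, and their number limits the precision. p-values measure the spread between these arrays, which may be technical.

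The genes, the lists and the relatives were chosen with earlier results of these data known. Named were the 10 genes, the genes of 3 Wnt lists that were called (the 5 with the largest change where over 10 were called in a direction), 12 pathway genes regardless of their call, and the 5 genes nearest to *Axin2*. *Fam123b* and *Gpr177* stood for *Amer1* and *Wls*. The relatives, the background percentile and the neighbouring genes were chosen after the data were seen. Chromosomes were taken from RefSeq genes of GRCm38.p6 by symbol (97.5% of genes placed), and promoter windows were searched with Python 3.11.15. Alternatives were further scaling, filters on dim genes, other handling of probe sets, the methods' t-test, limma with trend and robust estimation, other fold thresholds, subtraction of the chromosome median, a replicate block and leaving out each array.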

Additional observations from a re-analysis of the deposited data

How the results depend on the processing

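Under the 20 alternatives, none of the 10 genes changed direction, and *Axin2* and *Lgr5* were called lower in every one. Of 195 values of single genes under an alternative, 188 stayed on the same side of the call. *Notum* was not called with the mean of its probe sets (log2 fold change −0.98), and *Notum* and *Lef1* were not called at 4-fold. *Tcf7* was called at 1.5-fold. Leaving out the dimmest 50% of genes kept 5 of the 10, of which 3 were called lower, because *Dact1*, *Notum*, *Nkd1*, *Nkd2* and *Rnf43* were not tested.

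The fold threshold moved the counts most. With no fold threshold, 1 of the 10 genes was higher, the intracellular machinery had 10 higher and 16 lower, the ligands, receptors and antagonists had 17 higher and 21 lower, and the other targets had 23 higher and 9 lower, with 6454 higher and 5066 lower over all genes (1000 and 1548 at 2-fold). At 1.5-fold the machinery had 9 lower and the other targets 7 lower, with 2245 and 2871 over all genes. At 4-fold 3 of the 10 genes were lower, the machinery had 0 higher and 1 lower, the ligands, receptors and antagonists had 0 higher and 8 lower, and the other targets had 3 higher (186 and 509 over all genes), the counts of 0 being due to the threshold at any p. Subtracting the chromosome median left 0 machinery genes higher at 2-fold (10 at the adjusted p alone without that subtraction), since *Dvl1* and *Tle1* then lay just under it. With each array left out in turn, the machinery genes called higher numbered 1 to 2, and the 5 calls among the 10 genes held.

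Centring each array on its median raised the median log2 fold change of all genes by 0.20, and 55.5% of the calls were then higher in place of 39.2%. The same 5 of the 10 genes were called lower. At the adjusted p alone *Nkd1* no longer passed (adjusted p = 0.0553), and *Nkd2* (0.30, adjusted p = 0.0263) and *Rnf43* (0.40, adjusted p = 0.00419) passed as higher. *Wnt5a*, *Fzd2* and *Rspo1* were then under 2-fold. With further quantile normalization *Nkd1* also did not pass (limma adjusted p = 0.0506).

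The labels number the replicates 1 to 3 in both lines, but nothing says that a number marks a shared batch. Deviations of same-numbered arrays from their line means correlated at 0.26, 0.04 and 0.25. Every array except STOSE replicate 2 correlated best with its own number. STOSE replicate 2 correlated at 0.12 with M0505 replicate 3. With the replicate block, 5 of the 10 genes were called lower and 0 higher, and 1001 genes were higher and 1548 lower over all genes. The block changed no call among the 10. It lowered the SE of all of them except *Rnf43*, for example from 0.10 to 0.06 for *Axin2* and from 0.14 to 0.07 for *Dact1*. The limma adjusted p nevertheless rose for all of them except *Tcf7*, *Nkd2* and *Znrf3*. It went from 3.46e-08 to 3.84e-07 for *Axin2* and from 1.89e-06 to 2.43e-06 for *Dact1*.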

Other observations

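The genes next to the 10 on their chromosomes, among those on the array and in the order of RefSeq, were read as a further description. Of 20 such neighbours, 3 were called lower and 1 higher, where 7.59% and 4.9% of all genes were called in these directions. *Lgr5* was the only one of the 10 genes with a gene called lower on each side. On its chromosome, 10, 13.0% of genes were called lower. *Tspan8*, a tetraspanin of the cell membrane, had a log2 value of 9.78 in M0505 cells and 4.50 in STOSE cells (log2 fold change −5.28 ± 0.10 SE, limma adjusted p = 6.82e-09), a larger change than that of *Lgr5* itself, to a mean under the background percentile of 4.74. *Zfc3h1*, on the other side, was at 8.99 and 7.86 (−1.13 ± 0.10 SE, adjusted p = 2.12e-05). *Axin2* lay between *Ccdc46* (−0.74 ± 0.08 SE) and *Rgs9* (0.23 ± 0.07 SE), neither of them called. *Nkd2*, which did not pass the test, lay between *Slc12a7* (−1.16, called lower) and *Trip13* (1.97, called higher). The neighbours of *Lef1*, *Tcf7*, *Notum*, *Nkd1*, *Rnf43*, *Znrf3* and *Dact1* were not called.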
